A study of Mus musculus with 4 samples.

Results

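The genes described here are 10 members of the fibroblast growth factor (FGF) system that the array carries: the ligands Fgf1, Fgf2, Fgf7, Fgf10, Fgf18 and Fgf21, the signalling receptors Fgfr1, Fgfr2 and Fgfr3, and the receptor-like gene Fgfrl1. Their probes were taken as every probe whose gene name in the scanner files is one of these symbols, which gave 20 probes among 41174 and 10 gene names among 27827. Of these 20 probes, 14 probes of 8 genes entered the tests, since their signal was well above background in both lines of 1 genotype or of both. The 6 others were both probes of Fgf1, both of Fgf2, 1 of 3 of Fgfr2 and 1 of 3 of Fgfr3.

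Gene expression was measured in 4 lines of mouse embryonic fibroblasts (MEFs), 2 Ip6k1+/+ and 2 Ip6k1-/-. Each line came from 1 embryo at embryonic day 14, and the 4 embryos were littermates from parents that were both heterozygous for the Ip6k1 deletion. All lines, the Ip6k1+/+ controls included, carry SV40 large T antigen, the viral oncoprotein used to immortalise them, and were growing exponentially, 2 passages after thawing, when they were harvested. Ip6k1 encodes inositol hexakisphosphate kinase 1, which makes inositol pyrophosphates, and the comparison asks which transcripts differ when it is missing. No line was rescued with Ip6k1 on these arrays, and with 2 lines per genotype the differences between individual embryos are part of every genotype difference. The p-values, standard errors and intervals below come from limma, which draws the variance of each probe towards a trend over all probes tested. They are therefore not set by the spread between these 4 lines alone.

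RNA of each line was hybridised to 1 single-colour Agilent array, and all 4 arrays were on 1 slide. Values are log2 spot signal minus the 75th percentile of that array, so that 0 marks the 75th percentile. Where a pair of values is given for a genotype, replicate 1 comes first and replicate 2 second. The signal was well above background for 52.0% to 55.5% of probes on the 4 arrays, and no member probe was saturated. All 3 Ip6k1 probes were lower in both Ip6k1-/- lines, as the labels of the lines require. Probe A_51_P103718, well above background in every line, was lower by 4.13 on the log2 scale (limma adjusted p = 0.367). The others, A_51_P213766 and A_52_P413035, stayed at background in both Ip6k1-/- lines. Their limma adjusted p, 0.0355 for both, was computed on these background values as read. With a floor on dim values, no probe of the array passed the limma test across all probes. Given as bounds, these 2 probes were at least 34-fold and 32.7-fold lower in Ip6k1-/- MEFs. Such a bound takes, for each array of the dimmer genotype, the higher of the lowest signal well above background and the value of the probe itself. All 9 fibroblast markers looked for (among them Vim, Col1a1 and Pdgfra) were well above background in every line, and none of 5 skeletal muscle markers was. The cartilage markers Sox9, Col2a1 and Acan were well above background in every line as well. So were Krt18 (1 of 6 epithelial markers on the array) and Kdr (1 of 5 endothelial markers). Cd68 and Cd3e (2 of 6 leukocyte markers) and Tubb3 (1 of 4 neural and glial markers) were too, and 0 of 5 hepatocyte markers. The lines differ in sex-linked signal, with Xist measured in Ip6k1+/+ replicate 1 and Ip6k1-/- replicate 2 and the Y-linked Eif2s3y in the other two, so that each genotype holds 1 line of each kind.

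FGFs are secreted proteins that bind a receptor tyrosine kinase on the cell surface together with heparan sulfate, or, for the hormone-like FGFs, together with a klotho coreceptor. The bound receptor phosphorylates the docking protein FRS2, which recruits GRB2 and SOS and activates the ERK kinases. ERK signalling in turn induces ETS-family transcription factors and feedback inhibitors such as the Sprouty proteins and dual-specificity phosphatases. In embryonic tissue FGF7 and FGF10 are made by mesenchyme and signal to the epithelial form of FGFR2, FGF18 acts on cartilage and bone through FGFR3, and FGFR1 is the receptor usually found in mesenchymal cells. FGF21 is a circulating hormone of the fasting and stress response.

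The letters each array read are shown for the probes that the results turn on. For Fgf21 the probe below spans a splice junction, since its 60 bases cover 615 bases of the mm9 genome, at chr7:52869680-52870294 on the minus strand. The Fgf2 probe also spans a junction, at chr3:37247934-37295153 on the plus strand. It is shown because it was read 10 times on each array and still gave almost no signal above background. The Fgfr2 probe lies at chr7:137385966-137386025 on the minus strand, in sequence that encodes the extracellular part of the receptor. All sequences are given 5′ to 3′ as the array files list them.
Fgf21 A_51_P315925: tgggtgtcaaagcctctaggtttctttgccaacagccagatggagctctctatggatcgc
Fgf2 A_51_P399845: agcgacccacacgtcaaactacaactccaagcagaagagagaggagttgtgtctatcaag
Fgfr2 A_52_P158800: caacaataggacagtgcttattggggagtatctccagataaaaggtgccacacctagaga

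The Fgfr1 probes below overlap, which matters because agreement between them is not independent evidence on Fgfr1. A_51_P109469 lies at chr8:26684042-26684101 and A_52_P668810 at chr8:26684063-26684122, both on the plus strand of mm9, in sequence that encodes the kinase domain. The capitals mark the 39 bases that both probes cover, which differ at 1 base, A57G counted from the first base of A_51_P109469. The A_51_P109469 probe was designed on another transcript record than A_52_P668810.
Fgfr1 A_51_P109469: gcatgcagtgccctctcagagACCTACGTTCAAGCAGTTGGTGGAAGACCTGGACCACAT
Fgfr1 A_52_P668810: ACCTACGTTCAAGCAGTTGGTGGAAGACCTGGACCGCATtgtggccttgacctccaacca

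Fgf21 was the member that differed most between genotypes, and it was lower in both Ip6k1-/- lines than in both Ip6k1+/+ lines on each of its probes. Probe A_52_P235347, at chr7:52869305-52869364, gave -1.36 and -0.10 in Ip6k1+/+ replicates 1 and 2 and -4.23 and -2.70 in Ip6k1-/- replicates 1 and 2. It was well above background on all 4 arrays. The genotype means were -0.73 ± 0.89 and -3.47 ± 1.08 (SD, n = 2 lines each), a difference of -2.73 (standard error 0.70, 95% interval -4.57 to -0.90), so that the mean signal was 6.66-fold higher in Ip6k1+/+ MEFs.

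The junction-spanning Fgf21 probe A_51_P315925 gave -2.97 and -1.21 in Ip6k1+/+ MEFs and -4.93 and -3.76 in Ip6k1-/- MEFs. Its lowest value, in Ip6k1-/- replicate 1, was not well above background, so that the mean of that genotype includes a value with only an upper bound. The difference was -2.25 (standard error 0.75, 95% interval -4.22 to -0.29), or 4.77-fold. On both probes the closest pair of lines was Ip6k1-/- replicate 2 and Ip6k1+/+ replicate 1, which differed by -1.34 and -0.79, and the farthest was Ip6k1-/- replicate 1 and Ip6k1+/+ replicate 2, which differed by -4.13 and -3.72.

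These Fgf21 differences did not pass the test across all probes. Their unadjusted p-values were 0.0128 and 0.0321 and both adjusted p-values were 0.993 (limma with Benjamini-Hochberg adjustment over 21572 probes). No member probe had an adjusted p at or under 0.05, while 3 probes of the whole array did, or 0.0139%. A permutation of 2 lines against 2 cannot give a two-sided exact p under 0.333, so that none was run. The fold rule asked for a mean log2 difference of at least 1 in size, with each Ip6k1-/- line at least 0.9 away from the Ip6k1+/+ mean in that direction. Under it 2 of the 14 member probes were lower, both of Fgf21, against 1.87% of all probes tested, and 0 were higher, against 1.06%. The same 2 probes were the members with both Ip6k1-/- lines below both Ip6k1+/+ lines, an arrangement found in 12.6% of all probes. However, A_51_P315925 entered the tests only through Ip6k1+/+ MEFs, where it was high, and so does not add to the support from A_52_P235347. Of the 13 member probes well above background on all 4 arrays, A_52_P235347 alone was lower by the fold rule, against 1.21% of all such probes, and alone had both Ip6k1-/- lines below, against 11.5%. No member probe had both Ip6k1-/- lines above, which 18.8% of all probes had. As both probes read 1 transcript, they count as 1 gene of 8. The size of the Fgf21 difference depended on every line and on the background correction. On A_52_P235347 and A_51_P315925 it was -3.37 and -3.13 without Ip6k1+/+ replicate 1, -2.10 and -1.38 without Ip6k1+/+ replicate 2, -1.97 and -1.67 without Ip6k1-/- replicate 1, and -3.50 and -2.84 without Ip6k1-/- replicate 2. With normexp background correction it was -1.86 and -1.22.

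The Fgf21 promoter is shown for the context of that difference, from RefSeq on GRCm38.p6, as the 250 bases before the transcript start on the minus strand, chr7:45615491-45615740. Capitals mark the matches to 3 motifs searched on both strands. These were TGATGCAAT, a form of the composite site bound by C/EBP and ATF4 dimers in amino acid response elements, the E-box CACGTG and the TATA-box letters TATAAA.
Fgf21 promoter: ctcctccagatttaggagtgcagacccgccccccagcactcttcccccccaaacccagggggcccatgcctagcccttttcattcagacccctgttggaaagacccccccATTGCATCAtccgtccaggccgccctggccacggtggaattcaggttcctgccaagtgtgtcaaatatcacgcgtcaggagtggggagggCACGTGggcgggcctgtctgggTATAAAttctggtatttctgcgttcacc

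Each motif matched once, and none overlapped another. The first was read on the opposite strand, as ATTGCATCA, and begins 140 bases before the start. The E-box begins 50 bases and the TATA letters 28 bases before it. Among 32851 promoter windows of the same length, TGATGCAAT was present on either strand in 0.167%, CACGTG in 6.02% and TATAAA in 12.4%. A match describes the letters only, and binding to this promoter was not measured.

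**Figure D1:**
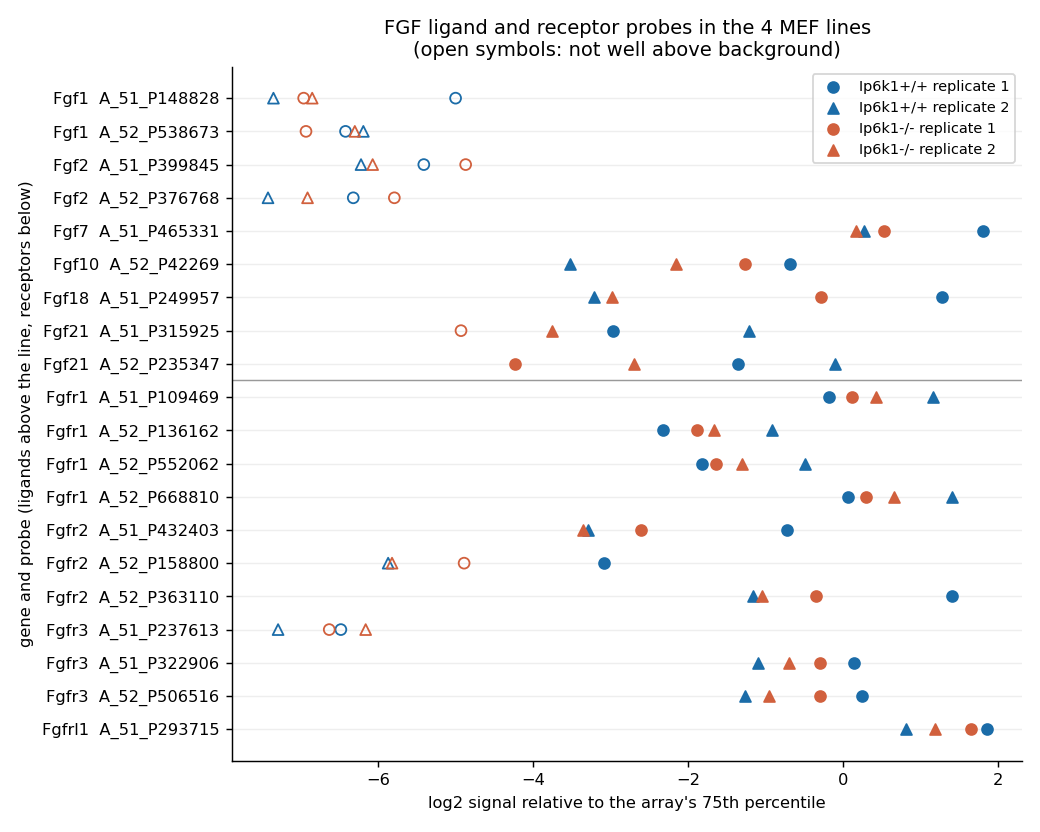
Log2 signal relative to each array's 75th percentile (x axis) for the 20 member probes (y axis) in the 4 lines, with Ip6k1+/+ in blue and Ip6k1-/- in orange, circles for replicate 1 and triangles for replicate 2. Open symbols were not well above background. Among the tested probes, both orange symbols lie left of both blue ones only for Fgf21.

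Fgf7, also known as keratinocyte growth factor, had 1 probe, at chr2:125915147-125915206, and was well above background in every line. Its values were 1.81 and 0.27 in Ip6k1+/+ MEFs and 0.53 and 0.16 in Ip6k1-/- MEFs. Ip6k1+/+ replicate 1 stood above the other lines, which lay within a log2 range smaller than the distance to it. The genotypes overlapped and differed by -0.69, with a standard error of 0.56 (limma adjusted p = 0.993).

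Fgf10, a close relative of Fgf7 needed for limb and lung outgrowth, was read by 10 spots of 1 probe at chr13:119580365-119580424. Its values were -0.69 and -3.53 in Ip6k1+/+ MEFs and -1.27 and -2.15 in Ip6k1-/- MEFs. The Ip6k1+/+ lines thus lay on either side of the Ip6k1-/- lines and differed by 7.18-fold from each other. The difference between genotypes was 0.40, with a standard error of 1.01 (limma adjusted p = 0.993) and a 95% interval of -2.24 to 3.03.

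Fgf18, a ligand of the cartilage receptor Fgfr3, varied most among the lines. Its probe at chr11:33017441-33017500 gave 1.27 and -3.22 in Ip6k1+/+ MEFs and -0.29 and -2.98 in Ip6k1-/- MEFs. Replicate 1 exceeded replicate 2 by 4.49 in Ip6k1+/+ and by 2.69 in Ip6k1-/- MEFs, or 22.4-fold and 6.46-fold. The genotype difference was -0.66 with a standard error of 1.72 and a 95% interval of -5.16 to 3.84, so that these lines set almost no limit on it.

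Fgf1 and Fgf2, the acidic and basic FGFs, gave no probe well above background in any line. The Fgf1 probes lay between -7.35 and -5.00, with no fold given since both genotypes were at background. The Fgf2 probe printed above had 10 spots on each array, of which 9, 9, 10 and 10 were kept in the order Ip6k1+/+ replicates 1 and 2 and Ip6k1-/- replicates 1 and 2. Of these, 1, 0, 3 and 0 spots were well above background. The mean of the spots was -5.41 and -6.22 in Ip6k1+/+ MEFs and -4.87 and -6.07 in Ip6k1-/- MEFs. The other Fgf2 probe, A_52_P376768, lay between -7.42 and -5.79 in the 4 lines. At this signal a genotype difference in either gene was not detectable.

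Of the receptors, Fgfr1 was measured in every line by 4 probes, and all 4 ranked the lines in the same order. Ip6k1+/+ replicate 1 was lowest, followed by Ip6k1-/- replicate 1, Ip6k1-/- replicate 2 and Ip6k1+/+ replicate 2. The probe with 10 spots, A_51_P109469, gave -0.18 and 1.16 in Ip6k1+/+ MEFs and 0.11 and 0.43 in Ip6k1-/- MEFs. Its overlapping neighbour A_52_P668810 gave 0.06 and 1.41, and 0.29 and 0.66. The separate probe A_52_P136162, at chr8:26680165-26680224, gave -2.32 and -0.92, and -1.88 and -1.66. The most upstream probe, A_52_P552062 at chr8:26642756-26642815, gave -1.82 and -0.49, and -1.64 and -1.31.

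The 4 Fgfr1 probes differed by -0.32 to -0.15 between genotypes, with standard errors of 0.50 to 0.54 and limma adjusted p-values of 0.993. Within the Ip6k1+/+ genotype replicate 2 exceeded replicate 1 by 1.33 to 1.40 on the same probes, and within Ip6k1-/- by 0.22 to 0.37. The level of Fgfr1 in Ip6k1-/- MEFs therefore lay inside the range of the Ip6k1+/+ lines. For A_51_P109469 the 95% interval of the difference was -1.52 to 1.09, which leaves room for a change of either sign larger than 2-fold.

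Fgfr2, the receptor whose epithelial splice form binds FGF7 and FGF10, was highest in the line where Fgfr1 was lowest, Ip6k1+/+ replicate 1. Its probe with 10 spots, A_51_P432403 at chr7:137307455-137307514, gave -0.73 and -3.29 in Ip6k1+/+ MEFs and -2.61 and -3.36 in Ip6k1-/- MEFs. Probe A_52_P363110, at chr7:137306712-137306771, gave 1.40 and -1.16, and -0.35 and -1.05. Ip6k1+/+ replicate 1 was thus highest, Ip6k1-/- replicate 1 next, and the lines numbered 2 lay lowest and close together. The genotype differences were -0.98 (standard error 0.92) and -0.83 (standard error 0.89), both with a limma adjusted p of 0.993. The Fgfr2 probe printed above, A_52_P158800, was well above background only in Ip6k1+/+ replicate 1, at -3.08. The other Ip6k1+/+ line was at -5.87 and the Ip6k1-/- lines at -4.89 and -5.82. With 1 line measured, no genotype difference is given for this probe.

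Fgfr3, which restrains the growth of cartilage, was read by an overlapping pair of probes that share 37 bases with 1 difference, T28C counted from the start of A_51_P322906. A_51_P322906, at chr5:34078899-34078958, gave 0.14 and -1.10 in Ip6k1+/+ MEFs and -0.30 and -0.70 in Ip6k1-/- MEFs. A_52_P506516, at chr5:34078922-34078981, gave 0.24 and -1.27, and -0.30 and -0.96. The Ip6k1-/- lines lay between the Ip6k1+/+ lines on both, and the genotype differences were -0.02 (standard error 0.49) and -0.12 (standard error 0.59), with limma adjusted p-values of 1.000 and 0.993. A further Fgfr3 probe, A_51_P237613, stayed at background in all 4 lines.

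Fgfrl1, which encodes a receptor that binds FGFs but lacks the tyrosine kinase, had 1 probe at chr5:109135524-109135583. It gave 1.85 and 0.81 in Ip6k1+/+ MEFs and 1.65 and 1.19 in Ip6k1-/- MEFs. The genotype difference was 0.08, with a standard error of 0.42 and a 95% interval of -1.02 to 1.18 (limma adjusted p = 0.993). Again both Ip6k1-/- lines lay between the Ip6k1+/+ lines.

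**Figure D2:**
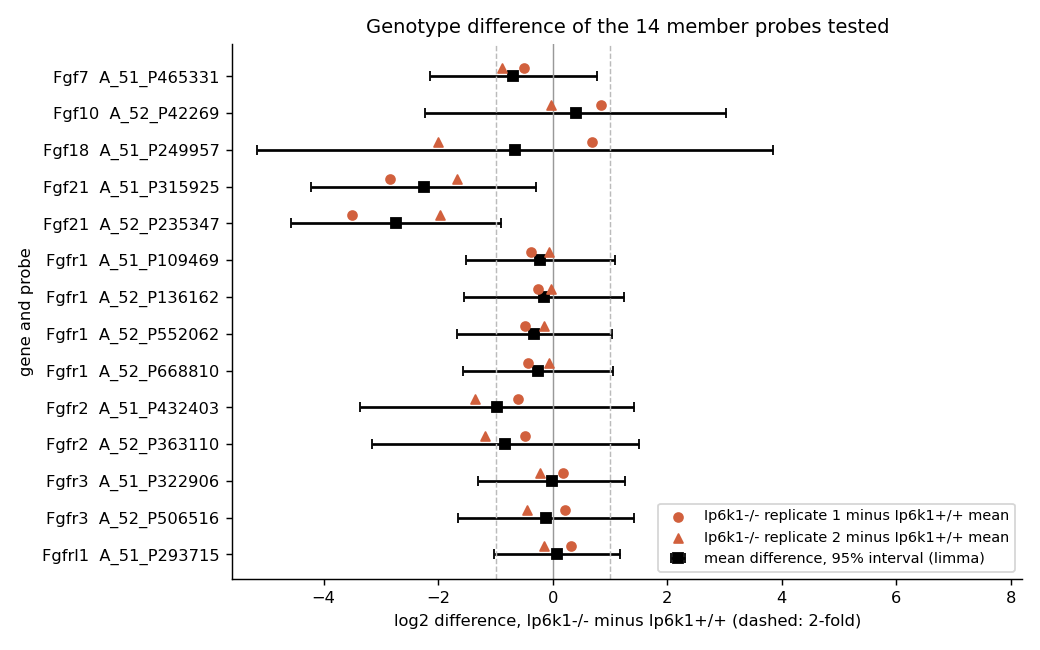
Log2 difference between Ip6k1-/- and Ip6k1+/+ MEFs (x axis) for the 14 member probes tested (y axis). Squares with bars are the mean difference and its 95% limma interval, orange symbols the 2 Ip6k1-/- lines against the Ip6k1+/+ mean, and dashed lines a 2-fold difference. Only the intervals of the Fgf21 probes, -4.22 to -0.29 and -4.57 to -0.90, do not reach 0 before adjustment. The intervals use the limma variance, which borrows from all probes tested, and not the spread of the 4 lines alone.

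Across the members the lines of 1 genotype differed from each other more than the genotypes did. The mean of the gaps between replicates 1 and 2 of each genotype was larger than the genotype difference for 12 of 14 probes, all but those of Fgf21, against 68.5% of all probes tested. Both Ip6k1-/- lines lay between the Ip6k1+/+ lines for 10 of 14 probes, of Fgf10, Fgf18, Fgfr1, Fgfr2, Fgfr3 and Fgfrl1, against 19.1% of all probes. Several of these probes read the same gene or overlapping sequence, so that the 10 probes stand for 6 genes. For Fgfr2 only A_52_P363110 is among them. On the Fgfr2 probe with 10 spots, Ip6k1-/- replicate 2 (-3.36) lay just below Ip6k1+/+ replicate 2 (-3.29). The highest line was an Ip6k1+/+ line for all 14 probes, against 47.4% of all probes. It was replicate 1 for 8 of the 14 and replicate 2 for the 6 probes of Fgfr1 and Fgf21. The 14 probes read only 8 genes, so that these counts are not of independent probes.

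The gaps had the same sign in both genotypes for all 14 probes, an arrangement that 63% of all probes had. Here too the 14 probes stand for 8 genes and are not independent. Replicate 1 was above replicate 2 for Fgf7, Fgf10, Fgf18, Fgfr2, Fgfr3 and Fgfrl1, and below it for Fgf21 and Fgfr1. The gap reached a log2 value of 1 in both genotypes for 1 probe with replicate 1 above, that of Fgf18, against 3.03% of all probes. It did so for 2 probes with replicate 1 below, both of Fgf21, against 1.90% of all probes. For Fgf21, replicate 2 exceeded replicate 1 by 1.26 and 1.76 in Ip6k1+/+ and by 1.52 and 1.17 in Ip6k1-/- MEFs. Nothing in the labels ties lines of equal number to each other beyond the shared litter.

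**Figure D3:**
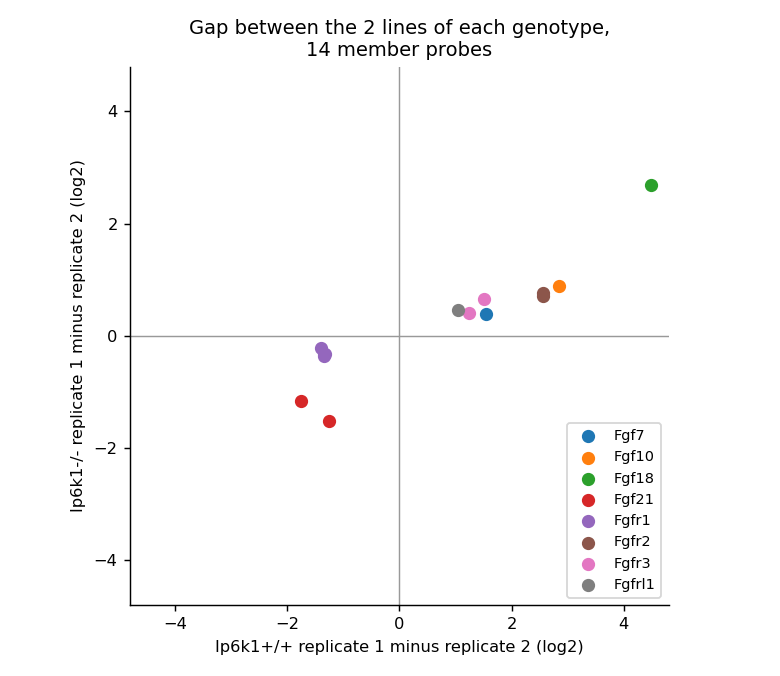
Replicate 1 minus replicate 2 in Ip6k1+/+ MEFs (x axis) and in Ip6k1-/- MEFs (y axis), both as log2 differences, for the 14 member probes, coloured by gene. The Fgf18 probe lies farthest out, at 4.49 and 2.69, and the Fgfr1 and Fgf21 probes lie in the opposite quadrant from the rest.

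The cartilage marker list was higher in replicate 1 than in replicate 2 of each genotype, as Fgf18 and Fgfr3 were. It was lowest in Ip6k1-/- replicate 2, whereas Fgf18 and Fgfr3 were lowest in Ip6k1+/+ replicate 2. The list is relevant to Fgf18 and Fgfr3, which cartilage cells express. In all lines 3 of 5 cartilage markers on the array were well above background, and their summed signal, in multiples of the 75th percentile of each array, was 4.86 and 1.43 in Ip6k1+/+ MEFs and 1.59 and 0.247 in Ip6k1-/- MEFs. Col2a1, the collagen of cartilage, gave 2.15 and -1.10 in Ip6k1+/+ MEFs and -1.07 and -3.18 in Ip6k1-/- MEFs on probe A_51_P317141. Its genotype difference was -2.65 (standard error 1.29, limma adjusted p = 0.993), past the fold rule, though the genotypes overlapped. Matn1 and Col9a1 stayed at background in all 4 lines. The part of such cells in the FGF values was not tested, and in bulk RNA fewer cells of a type and less RNA per cell cannot be told apart. The epithelial list, by contrast, was highest in Ip6k1+/+ replicate 2, where 4 of 6 markers on the array were well above background, against 2 in replicate 1 and 1 in each Ip6k1-/- line, and Cdh1 and Krt14 stayed at background in all lines. Its summed signal was 0.749 and 3.14 in Ip6k1+/+ MEFs and 0.513 and 1.58 in Ip6k1-/- MEFs. Its part in the Fgf21 and Fgfr1 values, also highest in that line, was not tested.

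Repeated spots give the spread within 1 array, which does not cover differences between arrays. The Fgf10, Fgfr1 and Fgfr2 probes with 10 spots had an SD between spots of 0.04 to 0.10 on each array, against gaps between Ip6k1+/+ lines of 2.84, 1.34 and 2.56. For Fgfr1 all 10 spots of Ip6k1+/+ replicate 1 lay below all 10 spots of replicate 2. For Fgf2, near background, the SD between spots was 0.31 to 0.70 and the spots of different lines overlapped. The spots of 1 array share 1 labelled RNA, so that their SD holds no spread between cultures or preparations.

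**Figure D4:**
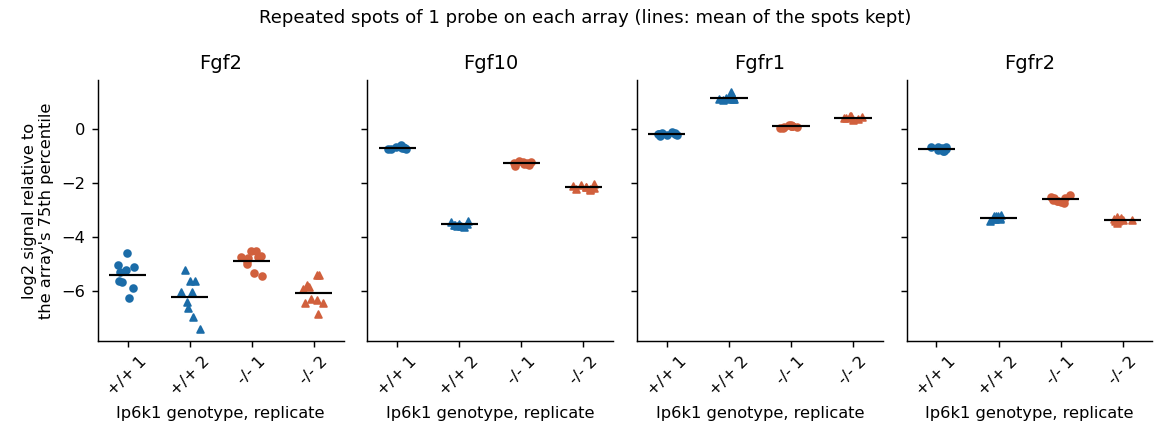
Log2 signal relative to the array's 75th percentile (y axis) of every kept spot of the Fgf2, Fgf10, Fgfr1 and Fgfr2 probes with 10 spots, by line (x axis), with a bar at the mean. Spots of 1 array lie close together for Fgf10, Fgfr1 and Fgfr2, with an SD of at most 0.10, and scatter for Fgf2, with an SD of up to 0.70.

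The other genes of FGF signalling showed no probe past the fold rule in either direction. Lists of 70 such genes, covering the remaining ligands, coreceptors, binding proteins, adaptors, feedback inhibitors, ERK-responsive transcription factors and heparan sulfate enzymes, had 77 probes of 47 genes that were tested. Their median difference was 0.07, beside 0.05 over all probes, -0.69 over the 5 member ligand probes and -0.22 over the 9 member receptor probes. None of the 77 passed an adjusted p of 0.05 in limma, and 2 had an unadjusted p under 0.05, or 2.6%, against 3.34% of all probes. Both Ip6k1-/- lines lay above the Ip6k1+/+ lines for 14, or 18.2%, and below for 8, or 10.4%, shares near the 18.8% and 12.6% of all probes. The values of the genes named in the next paragraphs were known when they were picked.

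Of the 16 other ligands, 10 had probes but none well above background and Fgf4 had no probe under that name. The 3 tested probes, of Fgf5, Fgf8 and Fgf11, differed by 0.01 to 0.42. Fgf5 gave -2.03 and -4.66 in Ip6k1+/+ MEFs and -1.51 and -4.34 in Ip6k1-/- MEFs, so that it too separated by replicate and not by genotype. Fgf9 was well above background only in Ip6k1+/+ replicate 2, at -3.94, and Fgf13 only in Ip6k1+/+ replicate 1, at -4.44. The klotho coreceptors Kl and Klb, of which Klb is the one FGF21 needs, had 2 probes each, all at background in the 4 lines. Fgfr4, the receptor found mainly in liver, had 1 of 3 probes above background in every line, at -1.38 and -0.94 in Ip6k1+/+ MEFs and -1.40 and -2.32 in Ip6k1-/- MEFs.

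The 21 tested probes of the 12 adaptor genes differed by -0.42 to 0.99 with a median of 0.21. Both tested probes of Frs2, the docking protein of FGF receptors, were higher in both Ip6k1-/- lines than in both Ip6k1+/+ lines, and its other probe was at background in all 4 lines. Probe A_52_P105138 gave 2.91 and 2.76, and 3.12 and 3.44. Its difference was 0.44 (standard error 0.21, limma adjusted p = 0.993). Of the 21, 8 probes had both Ip6k1-/- lines above the Ip6k1+/+ lines and 1 had both below, or 38.1% and 4.76%, beside 18.8% and 12.6% of all probes. The 8 probes were of Frs2, Grb2, Ptpn11, Crk and Cbl only. Several of them read the same gene and are not independent.

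The feedback inhibitors, which FGF and other ERK signals induce, had a median difference of -0.16 over 13 tested probes. Of these, 11 were below 0, or 84.6%, against 43.5% of all probes. The 13 probes read only 7 genes, and the 11 include a Spry2 probe whose difference rounds to 0.00. The largest line gaps in these lists were here. Spry1 gave -1.73 and 2.25 in Ip6k1+/+ MEFs and -3.75 and 2.60 in Ip6k1-/- MEFs. Dusp4, a phosphatase of ERK, gave -2.77 and 1.01, and -5.02 and 1.39 on probe A_51_P347333, where -5.02 was not well above background and is an upper bound. Both were thus high in the lines numbered 2 and low in those numbered 1. Spry2 probe A_52_P368532 gave 1.06 and 0.65 in Ip6k1+/+ MEFs and 0.08 and -0.07 in Ip6k1-/- MEFs. The difference was -0.85, with a standard error of 0.26 (limma adjusted p = 0.993). Its other probe, A_51_P445153, differed by 0.00, so that the probes disagree. Dusp6, the phosphatase most often used as a readout of FGF signalling, gave 4.16 and 4.21 in Ip6k1+/+ MEFs and 3.67 and 4.38 in Ip6k1-/- MEFs.

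The ERK-responsive transcription factors and cyclin differed by -0.69 to 1.19 with a median of 0.25 over 13 probes. Both Ip6k1-/- lines lay above the Ip6k1+/+ lines for 15.4% of these and below for 7.69%, beside 18.8% and 12.6% of all probes. The cyclin, Ccnd1, had the largest difference, 1.19 (standard error 0.66). It gave 2.20 and 0.79 in Ip6k1+/+ MEFs and 2.03 and 3.35 in Ip6k1-/- MEFs, so that the genotypes overlapped. Etv4, an ETS factor induced by FGF, gave -0.12 and 0.49 in Ip6k1+/+ MEFs and 0.92 and 1.39 in Ip6k1-/- MEFs. The difference was 0.96, with a standard error of 0.33 (limma adjusted p = 0.993). Its relatives did not share this arrangement. Etv1 differed by -0.69 and the Etv5 probes by -0.53 and -0.16, and their genotypes overlapped. Egr1, an immediate early gene, gave 5.18 and 4.48, and 4.22 and 4.17, a difference of -0.63 (standard error 0.28).

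Heparan sulfate, the cofactor that FGFs need at the cell surface, is made and trimmed by 12 listed genes. Of these, 10 were tested, by 19 probes with a median difference of 0.01 and a range of -0.75 to 0.38. Hs3st1 and Hpse were not tested, since each was well above background in 1 Ip6k1+/+ line only. Sulf1, which removes sulfate groups from heparan sulfate and lowers FGF binding to its receptor, gave 4.92 and 1.14 in Ip6k1+/+ MEFs and 4.83 and 1.57 in Ip6k1-/- MEFs. It was higher in the lines numbered 1, as Fgf18 was. Hs6st2, a sulfotransferase, was lower in both Ip6k1-/- lines on 2 of 3 probes, by 0.49 (standard error 0.20) for probe A_52_P599317 and by 0.75 (standard error 0.37) for A_51_P337451. Probe A_52_P244586 of the same gene was higher by 0.27.

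**Figure D5:**
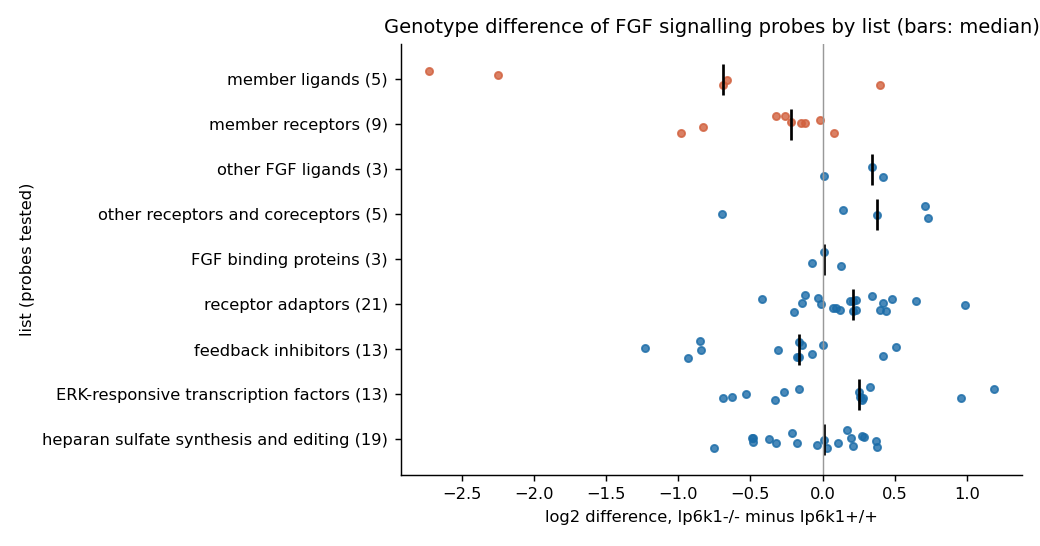
Log2 difference between Ip6k1-/- and Ip6k1+/+ MEFs (x axis) of each tested probe, by list (y axis, with the number of probes), with a bar at the median. The 2 Fgf21 probes lie at the far left of the member ligands, and the other lists lie between -1.23 and 1.19.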

How the data were processed

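The authors extracted each single-colour array with Agilent Feature Extraction and deposited spot intensity on a linear scale. They also deposited a table of log2 values after a shift to the 75th percentile. Feature Extraction 10.5.1.1 and the genome build mm9 are named in the file headers. Here each background-corrected signal was divided by the 75th percentile of its array, over 43379 spots other than controls, and taken to log2. Spots flagged as outliers were left out (96 to 133 per array), saturated spots were kept, and spots of 1 probe were averaged. A probe counted as well above background when most of its spots were.

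The genotypes were compared in R 4.3.3 with limma 3.58.1 (lmFit, then eBayes with its trend option), and p-values were adjusted by the Benjamini-Hochberg method across the 21572 probes tested. The methods name a 2-fold cutoff on means, and the fold rule used here also asks that each Ip6k1-/- line lie at least 0.9 from the Ip6k1+/+ mean. All 10 members are described with every probe. The rule for naming other genes asked for a probe past the fold rule or an adjusted p of 0.05, which no probe of the lists met, so that those named were picked after their values were seen. The members and lists were chosen with earlier results of these data known. The alternatives, among them normexp with an offset of 50, quantile and median scaling, filters, the deposited values, a replicate block and fits without 1 array, are given in the closing section. Promoter sequences came from RefSeq, which held 8 of the 10 members. Exon, intron and UTR annotation of mm9 was not used here. All 4 arrays were on 1 slide, so that it could not serve as a block. The number of arrays limits the precision.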

Additional observations from a re-analysis of the deposited data

How the results depend on the processing

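Both Fgf21 probes stayed lower in Ip6k1-/- MEFs under each alternative that could be run, with differences of -3.13 to -1.22 for A_51_P315925 and -3.50 to -1.86 for A_52_P235347 and limma adjusted p-values of 0.252 to 1.000 and 0.195 to 1.000. The smallest differences came with normexp background correction. The strict filter, well above background on all 4 arrays, removed A_51_P315925 and left 1 member probe past the fold rule and 1 with lines that do not overlap, both counts being of A_52_P235347. With a replicate block, a paired fit in which lines of equal number share a term, the count of limma calls over all probes was 3, as without it, the block lowered the standard errors of the Fgf21 probes to 0.34 and 0.28, and no member probe passed (lowest adjusted p = 0.195). The deviations of equal-numbered lines from their genotype means had a correlation of 0.48 over 21572 probes, so that these lines varied in part together. With 2 lines per genotype, replicates 1 and 2 give this same value by construction. The main fit did not take the numbers as pairs, since the labels tie lines of equal number by nothing beyond the shared litter.

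The limma count over all probes was 0 with normexp, quantile scaling, a floor on dim values and the methods' t-test (which had 849 probes at an unadjusted p of at most 0.05, against 721 under that p in limma), and 1 without a filter or with the strict one. Without each array in turn it was also 0. The probes of the other FGF signalling lists past the fold rule numbered 1 under quantile scaling or median scaling, 6 with no filter on dim probes, 2 by the mean difference alone and 3 to 11 without each array in turn. Member probes past the fold rule numbered 2 to 5 and those with lines that do not overlap 2 to 14 without each array in turn, fits in which 1 genotype holds a single line that is assumed to vary like the others.

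The difference of Fgfr3 probe A_51_P322906 turned to 0.03 under median scaling, which by its construction adds a constant to each array. Leaving out 1 array turned the sign of the difference of every tested member other than Fgf21. Its range was -1.02 to 1.82 for Fgf10, -2.90 to 1.59 for Fgf18, -1.46 to 0.08 for Fgf7 and -0.44 to 0.61 for Fgfrl1. For Fgfr1 it was -0.89 to 0.45 (A_51_P109469), -0.85 to 0.55 (A_52_P136162), -0.98 to 0.35 (A_52_P552062) and -0.93 to 0.42 (A_52_P668810). For Fgfr2 it was -2.26 to 0.30 (A_51_P432403) and -2.10 to 0.45 (A_52_P363110), and for Fgfr3 -0.64 to 0.60 (A_51_P322906) and -0.87 to 0.64 (A_52_P506516). The extremes of these ranges came without an Ip6k1+/+ line, replicate 1 or replicate 2, for each of these probes. Probes at background, those of Fgf1 and Fgf2 among them, carry no genotype difference at this signal.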
